A study of Mus musculus with 19 samples.

Results

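Expression of Ly6h and 6 related genes of the Ly6/uPAR family (Lynx1, Ly6a, Ly6e, Ly6c1, Ly6c2 and Ly6i) was examined by bulk RNA sequencing in primary mouse sarcomas. The 7 genes were taken by symbol from the 48795 gene rows of the deposited table, of which 48349 had a symbol. The list was selected on measured values of these same tumors: Ly6h had been picked because an earlier fit of 15 of them called it different between genotypes, and the other 6 are relatives of Ly6h added with that result known. The genotype values below are therefore given as a description without a test. Tests were made on variation among tumors of 1 genotype and, between genotypes, on genes outside the list: marker lists, nicotinic receptor subunits, other family genes, and genes near Ly6h. For the 7 genes, the count called by the fit across all genes is printed as background only.

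The samples were 19 untreated primary p53/MCA sarcomas, 11 from Rag2-/- mice and 8 from Rag2+/- mice, with 1 library per tumor. Rag2-/- mice cannot rearrange antigen receptor genes and lack mature T and B lymphocytes, while Rag2+/- mice keep 1 working copy and have both. In all of the mice, an adenovirus that delivers Cas9 and a guide against Trp53 (Adeno-sgp53-Cas9) was put into the gastrocnemius muscle, together with 300 µg of the carcinogen 3-methylcholanthrene (MCA). Tumors were taken at 70–150 mm3 from animals that, per the study's methods for its primary sarcomas, were 6–10 weeks old at injection. No treated tumors and no normal muscle are part of the comparison. The tumors are named here by their library labels, S41 to S51 for Rag2-/- and S52 to S60 (without S57) for Rag2+/-. Of them, 15 entered the genotype comparison of the study, and S41, S46, S51 (Rag2-/-) and S56 (Rag2+/-) did not. The study's methods say that samples failing quality control, or with too little RNA or DNA, were dropped. Whether this is why these tumors were left out is not stated there.

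Proteins of the Ly6/uPAR family are small and cysteine-rich, fold into a three-finger domain, and are mostly held on the outer cell surface by a glycosylphosphatidylinositol anchor. Ly6h and Lynx1 are known from the brain, where they bind nicotinic acetylcholine receptors and alter their trafficking or gating. Ly6a (Sca-1) marks hematopoietic stem and progenitor cells and is also found on endothelial and mesenchymal cells, Ly6c1 and Ly6c2 encode the Ly6C antigens of monocytes, endothelium and some T cells, Ly6i is expressed in bone marrow and myeloid cells, and Ly6e is a widely expressed interferon-stimulated gene. Several of these genes are known to be induced by interferons.

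In the GENCODE vM21 annotation of GRCm38, all 7 genes are protein coding and lie on chromosome 15. Ly6h is at chr15:75551268-75567255 on the minus strand. The other 6 start between 455 and 814 kb from the start of Ly6h: Ly6c2 at chr15:75108158-75111970, Ly6c1 at chr15:75044018-75048830, Ly6a at chr15:74994877-74998031, Ly6i at chr15:74979534-74983430 and Lynx1 at chr15:74747852-74753046, all on the minus strand, and Ly6e at chr15:74955051-74959905 on the plus strand. The coding sequences are 351 (Lynx1) to 420 bases long (Ly6h), and translated they hold 10 to 12 cysteines. Ly6h shared 50–55.5% of its coding bases with each of the other 6. Ly6a, Ly6c1, Ly6c2 and Ly6i were closer to each other, at 81.5–86.4% for every pair except Ly6c1 and Ly6c2, which shared 387 of 396 coding bases (97.7%). The first 150 coding bases of this near-identical pair, as long as 1 read, are shown because reads from one gene could be counted for the other. Capitals mark the 6 positions at which they differ.
Ly6c1: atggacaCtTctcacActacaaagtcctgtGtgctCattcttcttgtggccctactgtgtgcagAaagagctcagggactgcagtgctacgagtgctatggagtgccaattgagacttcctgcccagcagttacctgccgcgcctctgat
Ly6c2: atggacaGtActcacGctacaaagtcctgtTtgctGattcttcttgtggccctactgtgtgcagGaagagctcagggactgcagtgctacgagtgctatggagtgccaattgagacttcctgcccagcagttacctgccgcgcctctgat
The same stretch of Ly6h, the gene the comparison began with, follows for contrast, with the start codon in capitals.
Ly6h: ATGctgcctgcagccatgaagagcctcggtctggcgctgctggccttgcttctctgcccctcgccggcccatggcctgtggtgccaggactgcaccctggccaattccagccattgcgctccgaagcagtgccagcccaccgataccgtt

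Windows of 150 bases were compared with the annotated transcripts of all other genes to see where a read could fit more than 1 gene. Of the 1706 distinct windows of Ly6c1 transcripts, 39 (2.29%) were also present in Ly6c2, as were 39 of the 2737 windows of Ly6c2 (1.42%) in Ly6c1. The other 5 genes had 0 shared windows. The aligner allowed up to 2 mismatches and its handling of reads with several placements is not given in the sources used here, so the split of reads between Ly6c1 and Ly6c2 is uncertain and values of the pair are read with that limit.

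Promoter sequences in RefSeq (GRCm38.p6, from 250 bases before to 50 after a start) were found for 2 of the 7 genes, Ly6c1 and Ly6c2, with 4 promoters in all. The letters GAAANNGAA (from the core of the interferon-stimulated response element) were searched on both strands. They were present in 0 of these 4 windows and in 8.56% of all 32851 promoters.

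The 7 genes spanned a wide range of levels. On the deposited scale, log2(upper-quartile normalized FPKM + 0.1), where −3.32 is the value of a gene listed at 0, means over the 19 tumors (± SD) were 9.74 ± 0.55 for Ly6e, 8.46 ± 0.77 for Ly6a, 6.52 ± 1.07 for Ly6c2, 6.51 ± 0.93 for Ly6c1, 3.25 ± 1.21 for Lynx1, 1.86 ± 1.78 for Ly6i and 0.22 ± 2.03 for Ly6h. FPKM is per transcript length, so levels of different genes can be set side by side. Ly6c2 and Ly6c1 had near equal means over all tumors, with Ly6c2 above Ly6c1 in Rag2-/- tumors (6.86 against 6.43) and below it in Rag2+/- tumors (6.05 against 6.61). The steps from Lynx1 to Ly6i and from Ly6i to Ly6h were smaller than the SD of the lower gene.

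Depth differed little except in 1 tumor. From the spacing of low values, 24.9–33.8 M fragments on genes were estimated in 18 tumors and 5.25 M in S41. The genotype labels could be checked against lymphocyte genes. The mean log2 value of 11 T cell genes was −2.40 to −1.23 in Rag2-/- tumors and 0.09–2.43 in Rag2+/- tumors, with no overlap. The share of muscle genes varied widely: 12 skeletal muscle genes averaged from 4.48 (S48) to 12.39 (S51) in Rag2-/- tumors and from 6.72 (S53) to 13.24 (S56) in Rag2+/- tumors. S51 also stood apart in 10 cell cycle genes, with a mean of 1.29 against 3.93–5.21 in the other 10 Rag2-/- tumors. Among Rag2+/- tumors, S56 (2.02), S59 (2.05) and S60 (2.09) were low together, against 3.68–5.23 in the other 5. S51 was further set apart by 12 interferon gamma response genes, at 7.86 against 3.85–5.43 elsewhere.

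Ly6h was high in most but not all Rag2-/- tumors. In the 8 Rag2-/- tumors that the study compared, its log2 values were 2.96 (S48), 2.86 (S50), 2.27 (S47), 1.94 (S43), 1.86 (S44), 1.77 (S42), 1.75 (S45) and 1.68 (S49). In the 7 compared Rag2+/- tumors they were 1.55 (S55), −0.03 (S54), −0.86 (S58), −0.94 (S52 and S60), −1.80 (S53) and −1.90 (S59). Every one of these 8 thus lay above every one of these 7, although the gap between S49 and S55 was narrow.

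Of the 4 tumors that were not used to pick Ly6h, the 3 Rag2-/- tumors were lower than the other 8. Ly6h was 0.19 in S46, −1.60 in S41 and −3.32, listed at 0, in S51, the 3 remaining Rag2-/- tumors. It was also −3.32 in S56, the remaining Rag2+/- tumor. S46 was above 7 of the 8 Rag2+/- tumors, S41 was below 5 of them and S51 below 7, while S56 was below all 8 compared Rag2-/- tumors. S41 is the shallow library. S51 and S56 have low cell cycle and high muscle lists, as do S59 and S60, in which Ly6h was −1.90 and −0.94. The part of depth and of tumor content in the Ly6h values was not tested.

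Over all 19 tumors, mean Ly6h was 1.12 ± 1.95 in Rag2-/- tumors (SD, n = 11) and −1.03 ± 1.43 in Rag2+/- tumors (n = 8), and the groups overlapped. The difference was 2.15 (SE 0.77) on the log2 scale, and in the 15 tumors it was 2.84 (SE 0.43), from 2.14 ± 0.51 (n = 8) against −0.70 ± 1.18 (n = 7). When 1 tumor was left out, the difference ran from 1.82 (without S56) to 2.60 (without S51). These folds are on a scale with 0.1 added and understate changes of low values. In these bulk samples, fewer cells of a type and less RNA per cell cannot be told apart.

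**Figure D1:**
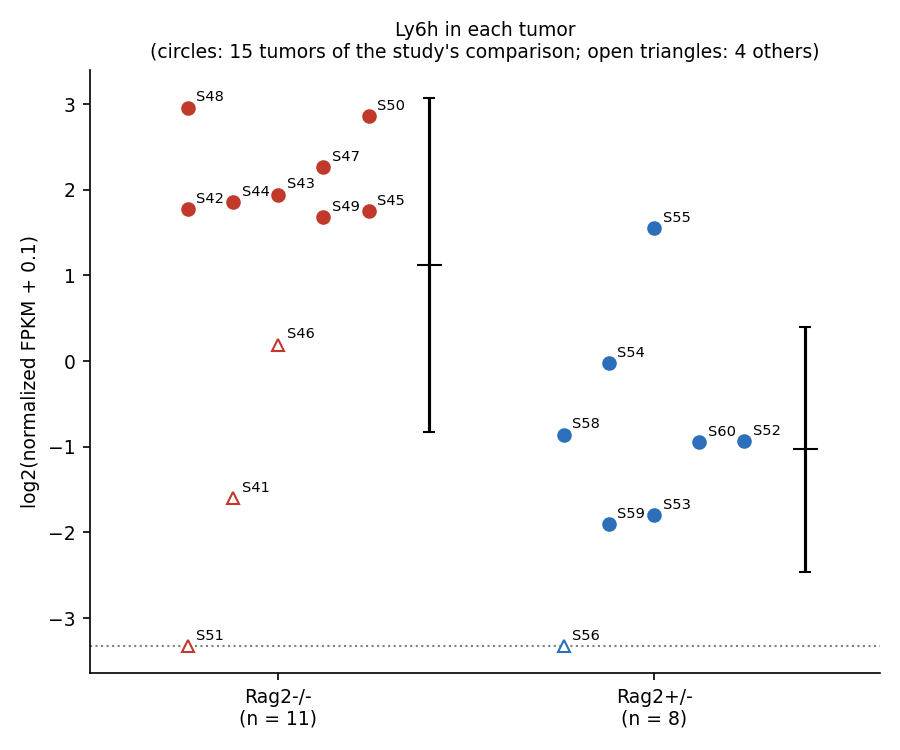
Ly6h in each of the 19 tumors, as log2(normalized FPKM + 0.1) on the vertical axis, by genotype. Filled circles are the 15 tumors of the study's comparison, open triangles the other 4, black bars the mean ± SD of each genotype, and the dotted line the value of a gene listed at 0 (−3.32). The 8 filled Rag2-/- tumors sit between 1.68 and 2.96, and the 3 open ones at 0.19, −1.60 and −3.32.

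Ly6h is a low-level transcript in these tumors, and the reads behind its values were few. The estimated number of fragments was 225 to 596 in the 8 compared Rag2-/- tumors, 73 in S46, 3 in S41 and 0 in S51. In Rag2+/- tumors it was 192 in S55, 8 to 65 in S52, S53, S54, S58, S59 and S60, and 0 in S56. In linear units the highest value was 7.68 normalized FPKM in S48, the highest Rag2+/- value was 2.83 in S55, and the lowest among the 8 compared Rag2-/- tumors was 3.10 in S49.

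The fit across all genes gives the background for these differences. Among 12826 genes with a mean log2 value above 0, limma with Benjamini-Hochberg adjustment called 4 at an adjusted p under 0.05 (0.0312%) in the 19 tumors, all lower in Rag2-/- tumors (Igkc, Igha, Tnfrsf18 and Cd2, named after their values were seen), and 2 of them, Igkc and Igha (0.0156%), had groups that did not overlap. At an unadjusted p under 0.05, limma gave 865 genes higher and 1226 lower. The count of Ly6 genes called was 0 of 7. In the 15 tumors, 15 of 12877 genes (0.116%) were called and 30 (0.233%) did not overlap. Ly6h was the 1 of the 7 genes in both counts, which restates the values that picked it.

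Lynx1, the other gene of the pair that acts on nicotinic receptors, went the opposite way in mean level. Its log2 values in Rag2-/- tumors ran from 1.61 (S48) through a median of 2.88 to 4.11 (S51), and in Rag2+/- tumors from 1.95 (S53) through 3.63 to 6.40 (S56). Means were 2.77 ± 0.64 (n = 11) and 3.90 ± 1.53 (n = 8), a difference of −1.13 (SE 0.48), and the groups overlapped. The higher Rag2+/- mean came from S56, S59, S60 and S52 (4.19 to 6.40), the 4 Rag2+/- tumors with the highest muscle genes. With the mean of the muscle list as a covariate the difference was −0.17 (SE 0.24).

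Ly6e, the interferon-stimulated member, was abundant in every tumor. It ran from 9.53 (S48) through 10.02 to 10.44 (S43) in Rag2-/- tumors and from 8.42 (S56) through 9.62 to 10.43 (S55) in Rag2+/- tumors. The mean was 9.96 ± 0.31 against 9.44 ± 0.68, a difference of 0.52 (SE 0.23), which was 0.96 under quantile normalization. Highest values were near equal in the genotypes, and the lowest Rag2+/- tumors, S56, S60 and S59, were at 8.42–8.92, below all 11 Rag2-/- tumors.

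Ly6a, which encodes Sca-1, differed little between genotypes relative to its spread among tumors. Values ran from 6.88 (S48) through 8.66 to 9.92 (S51) in Rag2-/- tumors and from 7.15 (S53) through 8.28 to 9.06 (S55) in Rag2+/- tumors. The difference was 0.41 (SE 0.34), from means of 8.63 ± 0.83 and 8.22 ± 0.66, and it was 0.25 without S53 and 0.12 in the 15 tumors.

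For the Ly6C genes, Ly6c1 ran from 4.56 (S48) through 6.04 to 8.19 (S51) in Rag2-/- tumors and from 5.45 (S53) through 6.998 to 7.54 (S59) in Rag2+/- tumors. Its difference was −0.17 (SE 0.42), and −0.55 in the 15 tumors. Ly6c2 ran from 5.52 (S46) through 6.93 to 8.84 (S51) in Rag2-/- tumors and from 4.46 (S56) through 5.88 to 7.85 (S55) in Rag2+/- tumors, with a difference of 0.81 (SE 0.45), which was 0.45 in the 15 tumors. The groups overlapped for both genes, and in all 19 tumors the SE of each difference was over 0.4.

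Ly6i had the widest span of the 7 genes over the 19 tumors, 7.68 against 6.28 for Ly6h, with S51 at the top. Among Rag2+/- tumors Ly6h spanned more, 4.88 against 4.59. Rag2-/- values of Ly6i ran from −1.07 (S50) through a median of 1.11 to 6.61 (S51), with the next highest at 2.25 (S47), and its Rag2+/- values ran from −0.14 (S53) through 2.64 to 4.45 (S59). The difference was −0.85 (SE 0.77) in 19 tumors, and ran from −1.36 (without S51) to −0.55 (without S59) when 1 tumor was left out. In the 15 tumors of the study's comparison, which lack S41, S46, S51 and S56, it was −1.72 (SE 0.59). S51 was the highest Rag2-/- tumor for Lynx1, Ly6a, Ly6c1, Ly6c2 and Ly6i, and the lowest for Ly6h.

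**Figure D2:**
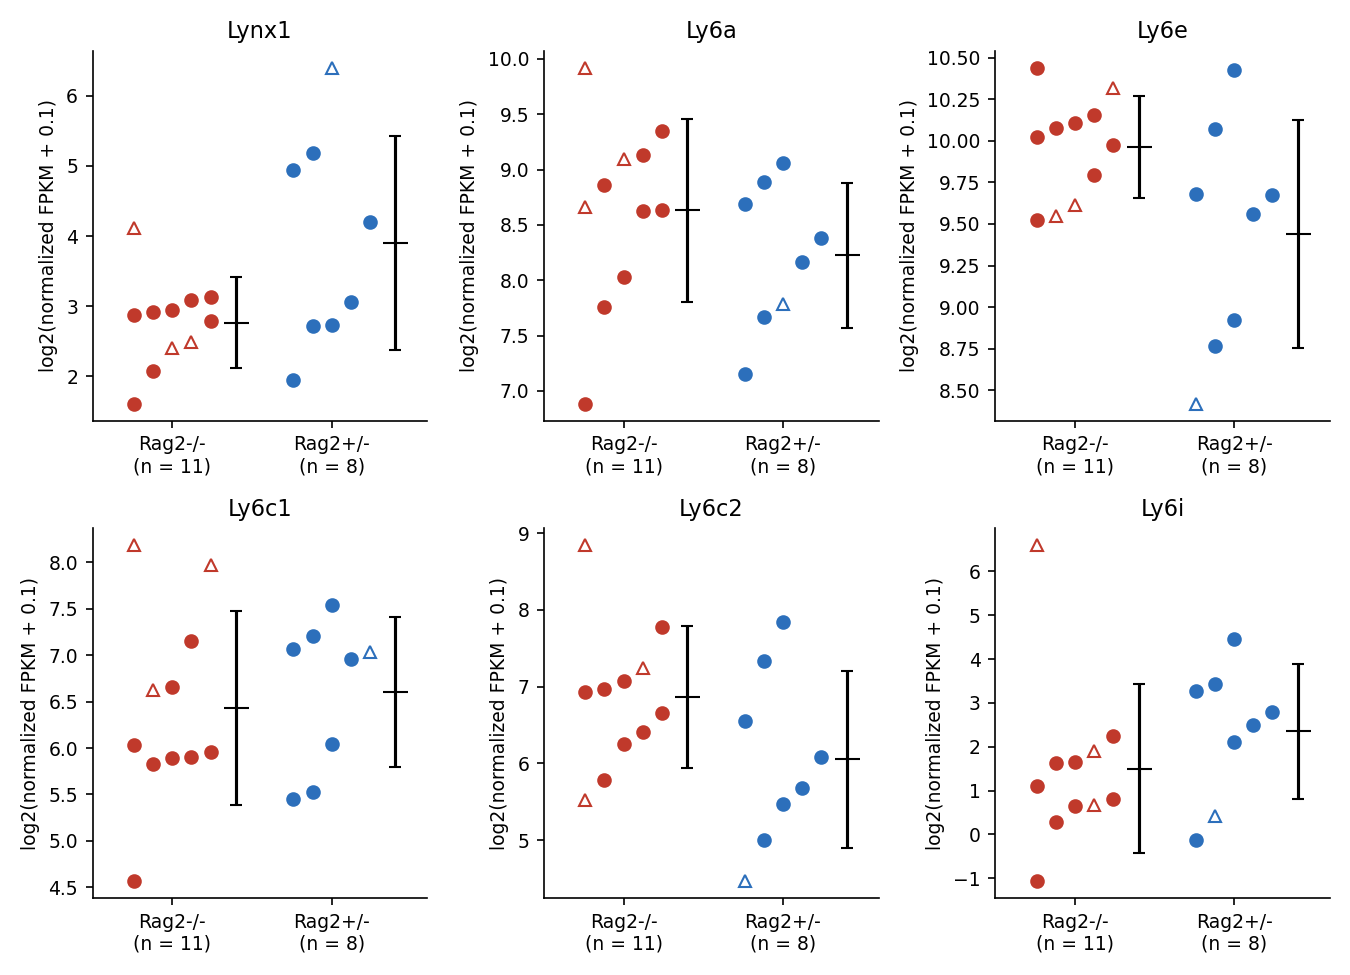
The other 6 genes in each tumor, as log2(normalized FPKM + 0.1) on the vertical axis of each panel (axes do not start at 0), with symbols and bars (mean ± SD) as in the plot of Ly6h. Genotypes overlap in every panel, and the highest open triangle among Rag2-/- tumors in the Lynx1, Ly6a, Ly6c1, Ly6c2 and Ly6i panels is S51.

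Muscle genes also varied between the tumors. The muscle list was 8.24 ± 2.12 in Rag2-/- and 10.45 ± 2.50 in Rag2+/- tumors (difference −2.21, exact permutation p = 0.0535, adjusted p = 0.125 over 14 lists), with Acta1, a skeletal muscle actin, furthest apart at −2.42. The list passed without S51 (adjusted exact permutation p = 0.0430) and without S53 (0.0375). With the list as a covariate, Ly6h differed by 1.37 (SE 0.78), Ly6a by 0.72 (SE 0.35), Ly6e by 0.26 (SE 0.22), Ly6c1 by 0.48 (SE 0.33), Ly6c2 by 0.90 (SE 0.50) and Ly6i by 0.05 (SE 0.74). The differences of Ly6a and Ly6c2 were thus larger with the covariate (from 0.41 and 0.81), those of Ly6h, Lynx1 and Ly6e were smaller, and the sign for Ly6c1 and Ly6i turned from lower to higher in Rag2-/- tumors. With Xist as a covariate, in place of the sex of the mice, Ly6h differed by 1.78 (SE 0.76) and Ly6c1 by 0.07 (SE 0.39), and without S48 Ly6c1 differed by 0.01, so the sign of Ly6c1 turned there too.

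**Figure D3:**
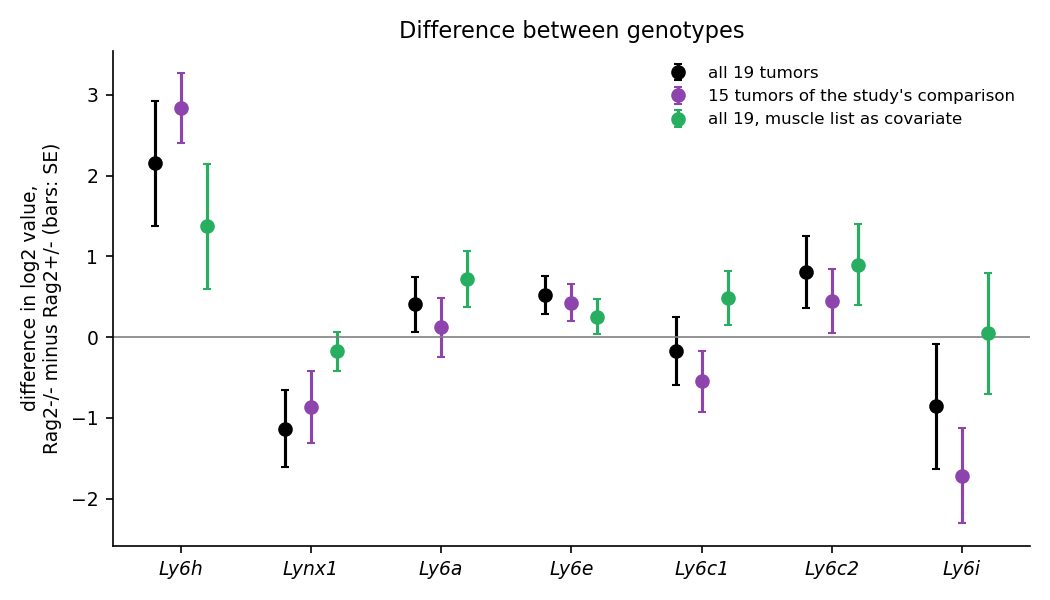
Difference in mean log2 value, Rag2-/- minus Rag2+/-, on the vertical axis for each of the 7 genes, with bars of ± 1 SE. Black points use all 19 tumors, purple the 15 of the study's comparison, and green all 19 with the muscle list as a covariate. Ly6h runs from 1.37 to 2.84 and Lynx1 from −1.13 to −0.17, and Ly6c1 and Ly6i change sign.

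Lists of other cell types and pathways were compared between genotypes with a two-sided exact permutation test on each list's mean log2 value. Of 14 lists, 4 passed at an adjusted p under 0.05. The difference for T cell genes was −3.20 (adjusted p = 9.26e-05), with Cd3e, a chain of the T cell receptor complex, at −4.80, and it was −3.11 for genes of B and plasma cells (adjusted p = 9.26e-05), with Igkc, the kappa light chain, at −9.73. NK cell genes were higher by 1.14 (adjusted p = 0.0199), led by the granzyme Gzma at 1.96, and type I interferon response genes were higher by 0.96 (adjusted p = 0.0301), with Ifi44 at 1.33. Neither of these latter 2 lists passed in the 15 tumors (adjusted exact permutation p = 0.112 for both) or without S56 (0.0569 and 0.0737). The type I interferon list also did not pass without any 1 of S41, S43, S44, S54, S59 and S60 (adjusted exact permutation p from 0.0502 to 0.0649), with differences of 0.87 to 0.94. All 14 type I interferon genes had a higher mean in Rag2-/- tumors. The list mean ranged over 4.998–6.78 in Rag2-/- and 3.88–6.11 in Rag2+/- tumors, and its part in the genotype values of Ly6e and Ly6c2 was not tested. With a pseudocount of 1 the differences were −1.47 for T cell genes, −1.65 for B and plasma cell genes and 0.65 for NK cell genes. With a pseudocount of 0.01 they were −4.69, −4.74 and 1.46, and each still passed under both.

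The other 10 lists had adjusted p of 0.125 or more by the same exact permutation test. The differences (Rag2-/- minus Rag2+/-) were 0.20 for interferon gamma response genes (largest Cxcl10, a chemokine, 0.92), −0.31 for endothelial genes (Flt1, −0.75), 0.33 for monocyte and macrophage genes (Ccr2, 0.72) and 0.28 for fibroblast genes (Pdgfra, 0.77). Without S56 the monocyte and macrophage difference was 0.15 and the fibroblast difference 0.19, and in the 15 tumors the former was 0.10. The fibroblast difference was 0.43 without S51 and 0.45 without S55. The sign for interferon gamma response genes rested on S51, as the difference was −0.11 without it and −0.22 in the 15 tumors. For Schwann cell genes the difference was −0.92, for cell cycle genes 0.78 (Aurkb, 1.02), for neutrophil genes 0.50 (0.21 without S53 and 0.31 without S47) and for nicotinic receptor subunits −0.51 (Chrna10, −1.94). For neuron genes it was 0.20 (0.02 to 0.37 with 1 tumor left out, the lowest without S59 and the highest without S51), and 0.48 in the 15 tumors. In the neutrophil and neuron lists the gene furthest apart went against the list, Mmp8 at −1.28 and Tubb3 at −0.83, while 7 of 8 and 7 of 10 genes had a higher mean in Rag2-/- tumors. The endothelial list passed without S46 (−0.45, adjusted exact permutation p = 0.0160). Without S51 the cell cycle list (1.09, adjusted exact permutation p = 0.0497) and the nicotinic list (−0.60, adjusted p = 0.0424) passed, as did the nicotinic list (−0.65, adjusted p = 0.0337) and the Schwann cell list (−1.22, adjusted p = 0.0375) without S53.

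Genes of nicotinic receptor subunits, those of the muscle receptor among them, were then listed. Of 16 nicotinic receptor subunits, 3 passed the filter on low values, 3 were listed at 0 in every tumor, and limma called 0 (lowest adjusted p = 0.301, with 2 at an unadjusted p under 0.05). Limma called 0.0312% of all tested genes, with 16.3% at an unadjusted p under 0.05, so 0 of 3 says little. The 3 subunits that passed the filter were Chrna1 and Chrnb1, subunits of the muscle receptor, at differences of −0.95 and −1.05, and the neuronal subunit Chrnb2 at 0.68. Chrna7, which encodes the subunit that Ly6h is best known to affect, was near the floor, at −2.60 ± 0.70 in Rag2-/- and −3.20 ± 0.35 in Rag2+/- tumors, above 0 in 8 of 19 tumors.

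Most of the remaining Ly6/uPAR family was at or near 0 in these tumors. Of 42 further family genes listed, 36 were in the table, 9 of these were listed at 0 in every tumor, and 3 passed the filter. Limma called 0 of the 3 (lowest adjusted p = 0.301, with 1 at an unadjusted p under 0.05). With 0.0312% of all tested genes called by limma and 16.3% at an unadjusted p under 0.05, 0 of 3 says little about the family. Plaur, the urokinase receptor, was at 5.10 ± 0.45 in Rag2-/- and 5.05 ± 0.85 in Rag2+/- tumors. Gpihbp1, which carries lipoprotein lipase to the capillary wall, was at 3.80 ± 0.81 and 4.14 ± 0.75. Cd59a, a complement inhibitor, was at 1.36 ± 0.99 and 2.49 ± 1.22, a difference of −1.13 (SE 0.48).

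Values of genes next to Ly6h on chromosome 15 were also compared. Within 500 kb of its start, 43 genes were in the table, Ly6c2 among them, and 15 were listed at 0 in every tumor. Of the 13 besides Ly6c2 that passed the filter, limma called 0 (lowest adjusted p = 0.301, with 2 higher and 1 lower in Rag2-/- tumors at an unadjusted p under 0.05). Of all genes tested, limma called 0.0312%, and 16.3% were at an unadjusted p under 0.05. A count of 0 among 13 genes thus cannot show whether the values of Ly6h extended to the region. Nearest to Ly6h were Gpihbp1 at 29.4 kb, with a difference of −0.34 (SE 0.35), the zinc finger gene Zfp41 at 49.4 kb, with 0.20 (SE 0.29), and Top1mt, a mitochondrial topoisomerase, at 111.5 kb, with −0.11 (SE 0.21). On the other side, the 2 tested genes were I830127L07Rik, a transcribed pseudogene 432 kb away, with 2.04 (SE 0.68, adjusted p = 0.301) from 0.87 ± 1.28 against −1.17 ± 1.87, and Ly6c2. Across the 19 tumors, after each genotype mean was taken off, Pearson's r with Ly6h was 0.70 for Zfp41, 0.64 for Zc3h3 (a zinc finger gene 275 kb away), −0.29 for Gpihbp1, 0.16 for Top1mt and −0.12 for I830127L07Rik, and −0.45 to 0.70 over the 13 genes. These coefficients are a description over tumors that share depth and content, and Zc3h3 was named after its value was seen.

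Variation among tumors of 1 genotype was examined by correlation with 8 of the lists. The spread of Ly6h within genotypes did enter the fit that picked it. Over all relations of 7 genes with 8 lists in both genotypes, 15 passed at an adjusted permutation p under 0.05 for Pearson's r, 7 in Rag2-/- and 8 in Rag2+/- tumors. For 4 of the 8 the Rag2+/- tumors fell into separate sets on one of the measures, so for those the values are given in place of a coefficient. Separate sets were defined, after the values were seen, as a gap of over 30% of the range with at least 3 tumors on each side.

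Lynx1 followed the skeletal muscle genes in both genotypes. In Rag2-/- tumors, r was 0.97 (adjusted permutation p = 0.00112, rho = 0.95, adjusted p = 0.00278), and 0.90 without S51 and S48, which lay farthest from the list's median. In Rag2+/- tumors, the muscle list lay at 6.72–9.60 in S53, S54, S55 and S58, where Lynx1 was 1.95–3.06, and at 12.06–13.24 in S52, S56, S59 and S60, where Lynx1 was 4.19–6.40, with no overlap in either. The relation within these sets of 4 tumors was not tested. Lynx1 in Rag2+/- tumors also rose with the Schwann cell genes (r = 0.94, adjusted permutation p = 0.00938, rho = 0.95, adjusted p = 0.0183, and r = 0.87 without 2 tumors). The Rag2+/- tumors had the same order on the Schwann cell and muscle lists, so a relation with Schwann cell genes cannot be told apart from that with muscle genes.

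Lynx1 was lower where cell cycle genes were higher. In Rag2-/- tumors r was −0.77 (adjusted permutation p = 0.0452, rho = −0.63, adjusted p = 0.189), and −0.82 without the 2 farthest tumors. Without S51 alone r was −0.49 (adjusted permutation p = 0.371), and the relation also did not pass without any 1 of S41, S42, S43, S45, S47, S48 and S49 (adjusted permutation p from 0.0519 to 0.101), although r there, at −0.79 to −0.76, was close to that in all 11. In Rag2+/- tumors, S56, S59 and S60 had cell cycle means of 2.02–2.09 with Lynx1 at 4.95–6.40, and the other 5 had 3.68–5.23 with Lynx1 at 1.95–4.19.

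Ly6e and Ly6c2 followed type I interferon response genes. For Ly6c2, r was 0.89 in Rag2-/- (adjusted permutation p = 0.00523, rho = 0.82, adjusted p = 0.0426, r = 0.79 without 2 tumors) and 0.94 in Rag2+/- tumors (adjusted p = 0.0123, rho = 0.90, adjusted p = 0.0426, r = 0.81 without 2 tumors). In the 15 tumors these were 0.79 and 0.92 and did not pass (adjusted permutation p = 0.111 and 0.0530). For Ly6e in Rag2+/- tumors, S56, S59 and S60 had Ly6e at 8.42–8.92 and the interferon list at 3.88–4.35, while the other 5 had Ly6e at 9.56–10.43 and the list at 4.79–6.11. Fibroblast genes were at 5.91–6.29 in these 3 tumors and at 6.63–7.75 in the other 5. In Rag2-/- tumors, r between Ly6e and the interferon list was 0.44 (adjusted permutation p = 0.293) and hung on single tumors. Without S51 r was 0.87 (adjusted permutation p = 0.0115, rho = 0.84), and without S46 and S48 it was −0.02. S51 had the highest interferon list of all tumors, 6.78, with Ly6e at 9.55.

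Ly6a followed interferon gamma response genes. In Rag2+/- tumors, r was 0.95 (adjusted permutation p = 0.00938, rho = 0.98, adjusted p = 0.00889), and 0.92 without S55 and S53. In Rag2-/- tumors, r was 0.72 (adjusted permutation p = 0.0816) with rho = 0.91 (adjusted p = 0.00747), and without S51 r was 0.94 (adjusted permutation p = 0.00448). In these tumors Ly6a also rose with the type I list (r = 0.81, adjusted permutation p = 0.01997, rho = 0.77, adjusted p = 0.0588, and 0.93 without S46 and S48), but this did not pass without S51 (r = 0.74, adjusted permutation p = 0.0756) or without S48 (r = 0.77, adjusted p = 0.0555). Whether these relations differ between genotypes was not tested.

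**Figure D4:**
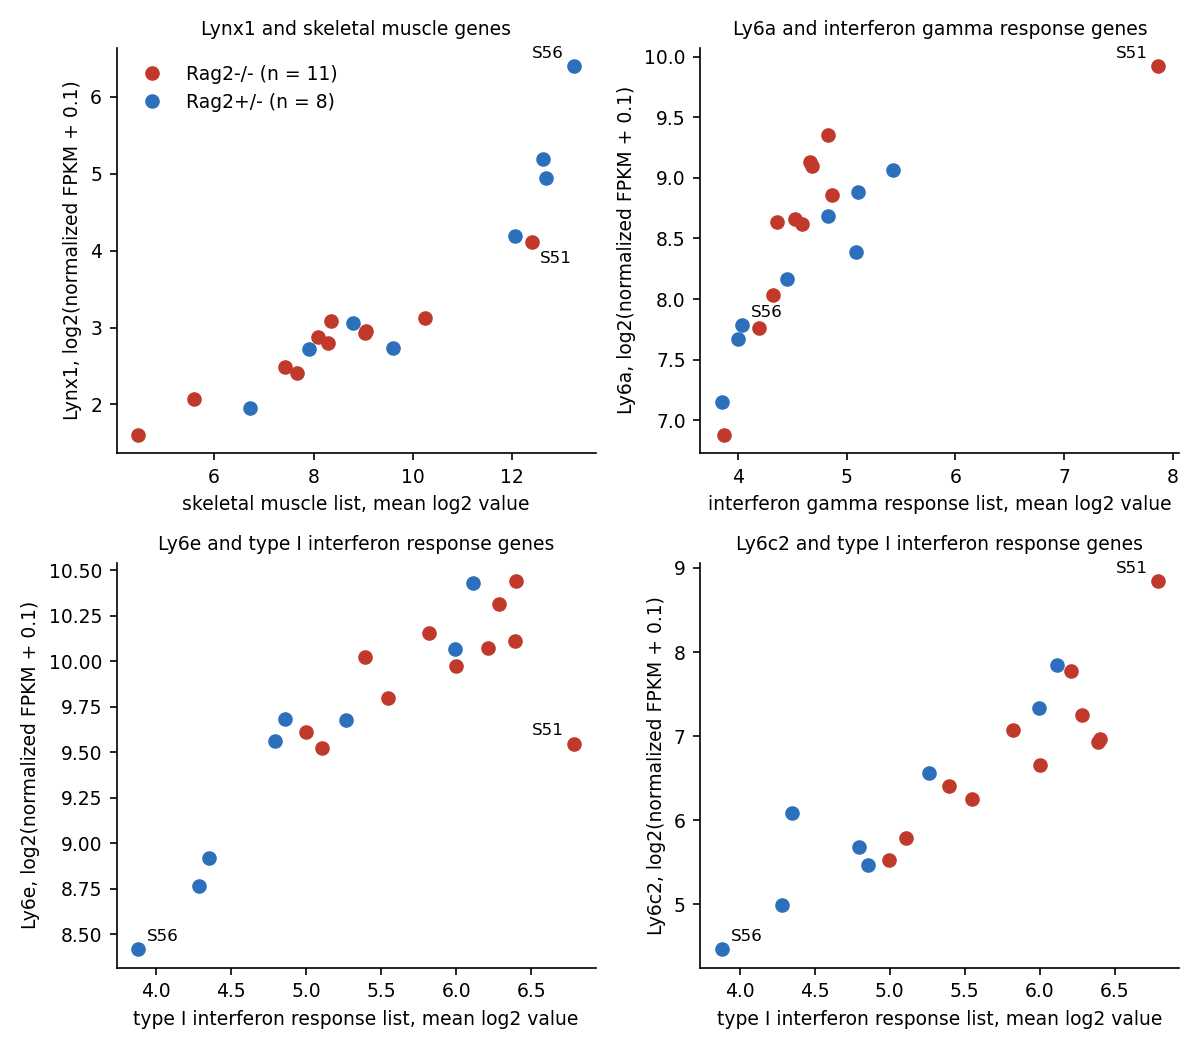
Levels of 4 genes (vertical axes, log2(normalized FPKM + 0.1)) against the mean log2 value of a marker list (horizontal axes), 1 point per tumor, red for Rag2-/- and blue for Rag2+/-. Lynx1 rises with muscle genes, Ly6a with interferon gamma response genes, and Ly6e and Ly6c2 with type I interferon response genes. In Rag2-/- tumors Pearson's r did not pass for the Ly6a (0.72) and Ly6e (0.44) panels, and S51 lies off the other Rag2-/- tumors in both.

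In 3 further Rag2-/- relations that passed, S51 was 1 of the 2 tumors left out for the second value of r. Ly6i in Rag2-/- tumors fell as cell cycle genes rose (r = −0.92, adjusted permutation p = 0.0288, rho = −0.75, adjusted p = 0.0691), but r was −0.48 without S51 and S46, and it did not pass without S51 alone (r = −0.56, adjusted permutation p = 0.268) or without S47 (r = −0.92, adjusted p = 0.0630). Ly6c1 had r = −0.76 with cell cycle genes (adjusted permutation p = 0.00874, rho = −0.63, adjusted p = 0.189), and −0.70 without those 2, and passed with each tumor left out in turn, but not in the 15 tumors (r = −0.80, adjusted permutation p = 0.149) or under quantile normalization (r = −0.67, adjusted p = 0.105). Ly6c2 rose with interferon gamma response genes in Rag2-/- tumors (r = 0.82, adjusted permutation p = 0.0128, rho = 0.84, adjusted p = 0.0332), with r = 0.63 without S51 and S48, and did not pass without S51 alone (r = 0.72, adjusted permutation p = 0.0982).

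Ly6h itself passed in 1 of its 16 relations. In Rag2+/- tumors it rose with fibroblast genes (r = 0.89, adjusted permutation p = 0.0373, rho = 0.90, adjusted p = 0.0426), a relation that rests on S55 and S56, the tumors with the highest and lowest fibroblast lists (7.75 and 5.91), since r was 0.53 without them. It did not pass without any 1 of S52, S55, S56, S58 and S59 (adjusted permutation p from 0.0569 to 0.113), although r was still 0.87 to 0.90 in these cases, except without S55 (0.76). It also did not pass with a pseudocount of 0.01 (r = 0.81, adjusted permutation p = 0.0954) or in the 15 tumors (r = 0.87, adjusted p = 0.103). In Rag2-/- tumors, r with fibroblast genes was 0.79 (adjusted permutation p = 0.0734, rho = 0.32). It was 0.35 without S51 (adjusted permutation p = 0.553) and 0.72 without S51 and S48. With skeletal muscle genes r was −0.50 (adjusted permutation p = 0.265) in Rag2-/- tumors, −0.01 without S51 and 0.35 without S51 and S48. In the 10 Rag2-/- tumors other than S51, the coefficients of Ly6h with the 8 lists lay between −0.47 and 0.35, and none passed (lowest adjusted permutation p = 0.371).

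**Figure D5:**
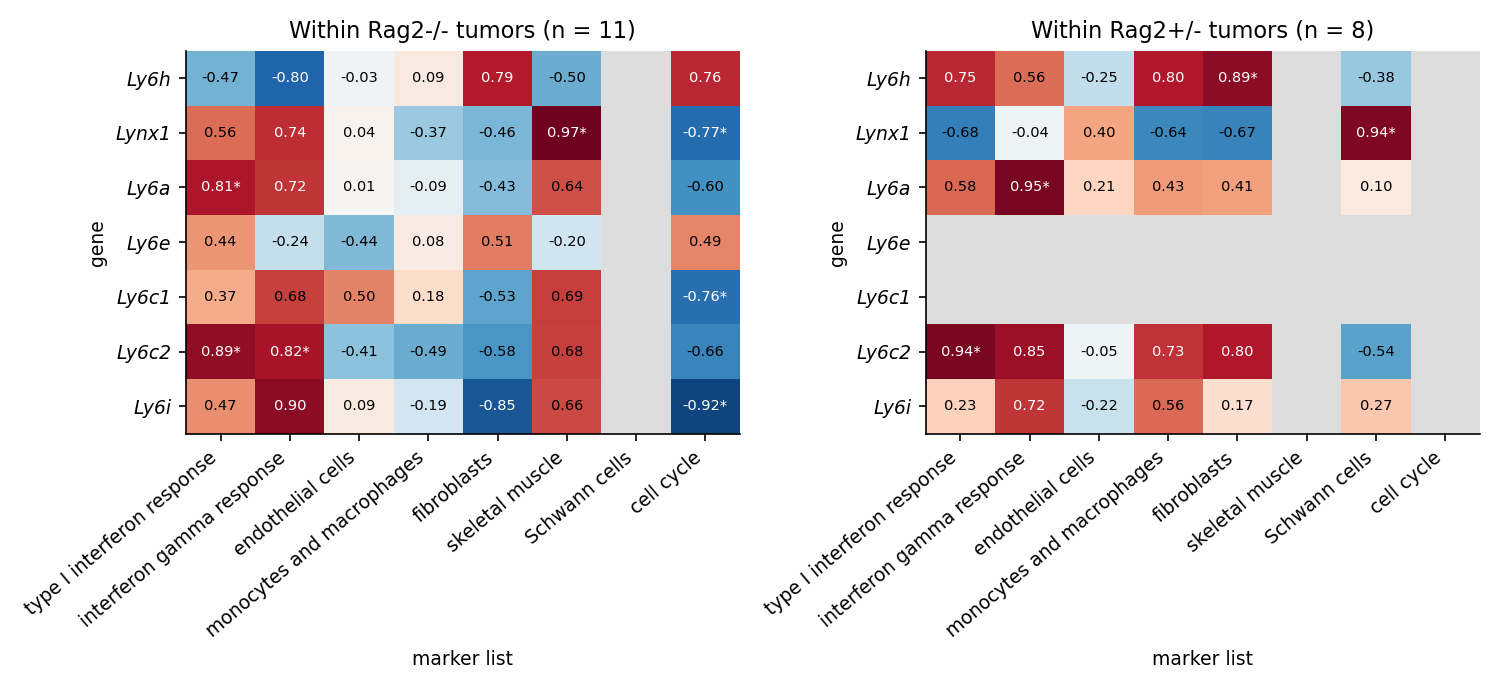
Pearson's r across tumors of each of the 7 genes (rows) with 8 marker lists (columns), within Rag2-/- tumors (left, n = 11) and Rag2+/- tumors (right, n = 8), red for positive and blue for negative. An asterisk marks an adjusted permutation p under 0.05 over all relations, and gray cells are those in which a measure fell into separate sets of tumors and no coefficient is given. The row of Ly6h has 1 asterisk, with fibroblast genes in Rag2+/- tumors (0.89).

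Among the 7 genes themselves, 0 of 42 pairs within a genotype passed at an adjusted permutation p under 0.05 for Pearson's r, with 12 in Rag2-/- and 7 in Rag2+/- tumors at an unadjusted p under 0.05. By Spearman's rho, 2 passed in Rag2-/- tumors, Ly6a with Ly6c1 (rho = 0.85, adjusted permutation p = 0.0472, with r = 0.81 at adjusted p = 0.0677) and Ly6c1 with Ly6i (rho = 0.84, adjusted permutation p = 0.0472, with r = 0.69 at adjusted p = 0.0809). For these pairs, r without the 2 farthest tumors was 0.49 and 0.41. Ly6h had negative coefficients with Lynx1 in both genotypes, −0.51 and −0.57 (adjusted permutation p = 0.226 and 0.238), and −0.12 and −0.21 without the 2 farthest tumors.

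The genes whose pattern was most like that of Ly6h were named by Pearson's r over the 19 tumors, as a description that shares depth and tumor content. After each genotype mean was taken off, they were Zfp324 (0.88), a zinc finger gene, Alg2 (0.88), a mannosyltransferase of N-glycan assembly, Postn (0.85), the matrix protein periostin, Mgat3 (0.85), a glycosyltransferase, and Aspn (0.84), the matrix protein asporin. Without that step they were Rnf215 (0.86), Capn15 (0.85), Cpxm1 (0.85), Zfp324 (0.84) and Plagl1 (0.83). None of the other 6 family genes was among them. The part of S51 and S56, in which Ly6h was listed at 0, in these coefficients was not tested.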

How the data were processed

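Values of 19 tumors (11 Rag2-/-, 8 Rag2+/-, grouped by their labels) were read from 1 table, and the number of its columns matched to no tumor was 0. The authors deposited log2 values: per the study's methods, reads were aligned to mouse genome build 38 with the Omicsoft Sequence Aligner, with up to 2 mismatches, and assigned to Ensembl gene models, and the FPKM were then upper-quartile normalized. The lowest value, −3.32 in every column, shows that 0.1 had been added. The submitters' processing notes also name Trimmomatic 0.36, STAR, HTSeq and mm10, without saying for which files. No counts are used here, so no count test was run. Upper-quartile scaling sets values relative to the other genes of a tumor.

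Ensembl identifiers were matched to symbols for 48349 of 48795 rows. The 12826 genes averaging above 0 on this scale were compared between genotypes with limma 3.58.1 (R 4.3.3, intensity trend, Benjamini-Hochberg at 0.05). Lists were summarized by their mean log2 value and compared by a two-sided exact permutation test over all 75582 ways to choose 8 of 19 tumors. Pearson and Spearman correlations within a genotype were tested two-sided, exactly (40320 orders) for 8 tumors and with 100000 resamples for 11, adjusted over 42 pairs or over all relations with lists. Fragments were estimated from the spacing of low values of genes with 1 transcript, of which 76.4–89.6% per tumor were whole within 0.05. This estimate is approximate, since it uses GENCODE vM21 lengths and the longest transcript. In a check of the fit, genotype means were taken off, and differences of 2 or 4 were added to the log2 values of 200 randomly drawn genes. The 19-tumor fit recovered 91.0% and 100% of them. With 200 changed genes the adjusted threshold is easier to pass than in the data, where 4 genes were called. These shares therefore do not describe how well a difference in Ly6h would be found.

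The 7 genes, the lists and the tests were chosen with earlier results of these data known. Named were the 7 genes, tested family genes, the nearest 3 tested neighbors on each side (2 existed on one side), each list's gene with the largest difference (1 is not reported here), and the 5 genes most like Ly6h. Each library is 1 tumor, and p-values measure the spread between these tumors. Replicate numbers follow accession order and pair nothing. Alternatives were the 15 tumors of the study's comparison, each tumor left out, other pseudocounts (1 and 0.01), normalizations, filters, limma without the trend, and Xist or the muscle list as a covariate.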

Additional observations from a re-analysis of the deposited data

How the results depend on the processing

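The 19-tumor fit called 4 genes. It called 15 in the 15 tumors of the study's comparison, 34 with no filter on low values, 0 with a mean log2 value above 2 and 2 with the muscle list as a covariate, and 3 to 7 when 1 tumor was left out (7 without S51 and 7 without S56). The Ly6h difference stayed positive under 26 alternatives, from 1.27 (pseudocount of 1) to 2.84 (15 tumors). Ranges for the others were −1.41 to −0.17 for Lynx1, 0.12 to 0.72 for Ly6a, 0.26 to 0.96 for Ly6e, −0.55 to 0.48 for Ly6c1, 0.45 to 1.06 for Ly6c2 and −1.72 to 0.05 for Ly6i. Counts of 0 called among the other family genes and the neighbors held under 29 alternatives, in which few of all tested genes were called (0 to 34). Pairs of the 7 genes that passed numbered 0, and 3 in the 15 tumors, 2 by Spearman's rho, and 0 to 6 with 1 tumor left out (6 without S46, 1 without S56). Relations with lists that passed numbered 15, and 12 to 20 over 25 alternatives. Lists that differed between genotypes numbered 4, and 2 in the 15 tumors and 2 to 7 with 1 tumor left out (7 without S51, 7 without S53, 2 without S56). The causes of these changes were not tested. Low depth in S41, at 5.25 M fragments, limits what its 3 estimated Ly6h fragments can show. No paired analysis was possible because the labels give no replicate numbers that tie tumors together.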

Other observations

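The balance of the Ly6C pair differed sharply in a few tumors, a pattern chosen after the values were seen. Ly6c1 was below Ly6c2 in 10 of 11 Rag2-/- tumors, by −1.22 to −0.28 on the log2 scale, and above it by 2.45 in S46. In Rag2+/- tumors, it was above Ly6c2 in 4 of 8, by 2.57 in S56, 2.21 in S60, 1.46 in S59 and 0.40 in S52, and below it in the other 4, by up to −1.29 in S58. Reads shared by the pair limit these values, and no test was made.

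Without S51, Lynx1 in Rag2-/- tumors had r = 0.85 with fibroblast genes (adjusted permutation p = 0.0139, rho = 0.85), and with S51 r was −0.46. Mafa, a transcription factor gene 181 kb from Ly6h, was at 0.29 ± 1.63 in Rag2-/- and 2.64 ± 2.38 in Rag2+/- tumors, a difference of −2.35 (SE 0.86, limma adjusted p = 0.301), and was named after its values were seen.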
